A study of Saccharomyces cerevisiae with 18 samples.

Results

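The step between 64 and 96 min of spore germination in rich medium was followed on 6 two-colour arrays of Saccharomyces cerevisiae, 3 of YPD 96 min and 3 of YPD 64 min, out of 53 arrays of 18 groups in the series. Each group is 1 sample in the labels with 3 arrays, numbered here as in the deposited scans. They were chosen by labelled medium and time alone, and all 6218 genes on the array were kept. YPD contains yeast extract, peptone and glucose. In both groups the cells were germinating spores of the strain Y55, a diploid of genotype HO gal3 MAL1 SUC1 that had been sporulated, so that a and alpha haploids were mixed in 1 culture; no mutant and no drug was used, and only the time after transfer differed between the groups. The series also followed spores in glucose alone, and the glucose 96 min and glucose 64 min arrays, 3 each, are used here only to show where the YPD step differed. The labels describe each sample as made up of several biological and scan replicates, so that the spread between arrays may be partly technical. RNA of the time point was in the Cy5 channel and RNA of dormant spores, a common reference, was in the Cy3 channel of every array. Values are log2 Cy5/Cy3 per array, so that 0 means the level of dormant spores, and a difference is the mean of 96 min minus the mean of 64 min.

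Germination is the return of a dormant spore to growth. The spore first takes up nutrients and rebuilds its ribosomes, then swells, sheds the spore wall and grows out a new cell wall before the first bud appears. A spore is haploid, and its mating type is set by the MAT locus: a cells make a-factor and the receptor for alpha-factor, and alpha cells make alpha-factor and the receptor for a-factor. When a pheromone binds its receptor, a G protein and a MAP kinase cascade activate the transcription factor Ste12, which turns on genes for arrest before Start, agglutination and cell fusion. Start is the commitment to a new cell cycle, driven by the G1 cyclins and by the factors SBF and MBF, whose targets include DNA replication genes.

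At 96 min genes of mating, above all those of a cells, stood far above their level at 64 min. Of 6045 genes with enough values, 207 were higher at 96 min (3.42%) and 166 were lower (2.75%) at an adjusted p under 0.05 in limma, a linear model with moderated variances fitted over all genes. At least 2-fold differences were seen in 59 of the higher and 62 of the lower genes. At an unadjusted p under 0.05 in limma, 711 of the 6045 genes were higher and 615 lower. The median difference was 0.82 among the higher genes and -0.89 among the lower ones, against 0.0042 over all genes tested, and the median standard error (SE) was 0.22. Each SE and p-value rests on a spread pooled over all 27 YPD arrays of 9 times, not on the 6 arrays alone. Fitting only the 6 arrays left 17 higher and 9 lower genes. The higher ones then held 4 of 8 a-specific and 5 of 25 pheromone-induced genes. The 3 arrays of 96 min lay wholly above the 3 of 64 min for 201 of the 207 higher genes, and wholly below for 155 of the 166 lower genes. Over all 6045 genes tested they lay wholly above for 800 and wholly below for 655. Called genes were picked for their difference, so that their lack of overlap is no separate evidence. In bulk RNA, fewer cells of a kind and less RNA per cell cannot be told apart, and log ratios centred on each array show change relative to the other genes only.

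The 2 sets of arrays differed in more than time. All 3 arrays of 96 min were quantified on one day and all 3 of 64 min on another, so that day and time cannot be told apart within YPD. In a fit of all 53 arrays with day as a fixed block, where only glucose arrays link both days, 63 genes were higher and 81 lower, with 3 of 8 a-specific and 7 of 25 pheromone-induced genes among the higher ones. Of the 63 and 81, only 31 and 25 were among the 207 and 166. The median Cy5 signal per array was 687.5 to 758.3 at 96 min and 1062 to 1771 at 64 min, over local backgrounds of 320.1 to 386.6 at 96 min and 351.1 to 536.9 at 64 min. Spots flagged as poor made up 13.1 to 15.7% at 96 min and 11.3 to 13.9% at 64 min. Correlations of all genes were 0.845 to 0.936 among arrays of 96 min, 0.864 to 0.941 among those of 64 min and 0.808 to 0.898 between the times.

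The genes listed as specific to a cells had the largest median difference of the 20 gene lists examined, 2.49. Of 8 on the array, all tested, 7 rose (AGA2, BAR1, MFA2, STE2, MFA1, ASG7 and STE6), and 6 to 8 did when any 1 of the 6 arrays was left out. Over all genes tested, 3.42% were called higher. STE2, the receptor for alpha-factor, had 3.99, 4.32 and 4.14 at 96 min, against 2.21, 0.81 and 0.92 at 64 min. Every array of 96 min was above every array of 64 min, and the difference was 2.83 ± 0.27 (SE, n = 3 each; adjusted p 2.6e-07, limma), or 7.13-fold. The 2 genes of the a-factor precursor moved with it. MFA2 had 3.46, 2.39 and 4.07 at 96 min, against 0.94, -0.08 and 0.24 at 64 min (2.94 ± 0.29, adjusted p 2.7e-07, limma). MFA1 had 3.12, 2.70 and 3.64 at 96 min, against 1.04, 1.09 and 0.89 at 64 min (2.14 ± 0.34, adjusted p 0.00043, limma). Neither gene overlapped between the times, and MFA1 already stood above dormant spores on every array of 64 min.

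The other called a-cell genes export, protect or respond to pheromone. BAR1, a secreted protease that degrades alpha-factor, had 3.53, 3.17 and 3.39 at 96 min, against 0.03, -0.11 and 0.27 at 64 min (3.30 ± 0.39, adjusted p 4e-06, limma). Its spots were above background in Cy5 on all arrays of 96 min but on only 1 of 3 at 64 min, so that the earlier level is poorly measured. AGA2, the binding subunit of a-agglutinin, had 3.92, 2.33 and 4.88 at 96 min, against 0.48 and 0.05 on the 2 usable arrays of 64 min (3.45 ± 0.45, adjusted p 6.6e-05, limma). The spread among the 3 late arrays of AGA2 was wide (SD 1.29), yet the lowest of them was above both earlier values. STE6, the transporter that exports a-factor, had 1.89, 0.75 and 2.56 at 96 min, against 0.73, 0.34 and -0.05 at 64 min. Its difference was smaller (1.39 ± 0.33, adjusted p 0.013, limma), the lowest late array was barely above the highest early one, and the call was lost when replicate 3 of 96 min was left out (adjusted p 0.069). ASG7, which lowers pheromone signalling in a cells and zygotes, differed by 1.69 (adjusted p 0.0023). AFB1, the remaining gene of the list, averaged 2.22 at 96 min and 1.26 at 64 min and did not pass (0.96, adjusted p 0.066, limma). It encodes a secreted blocker of a-factor, the pheromone that a cells make, so that its place in the a-specific list is doubtful. Its YPD mean was 3.43 at 128 min. From 64 over 96 to 128 min it lay near the medians of the alpha-specific list (1.26, 2.22 and 3.66). Those of the a-specific list were 0.36, 3.23 and 3.22.

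The alpha-factor genes of alpha cells were already high at 64 min. Of 4 genes that only alpha cells express, 1 rose, beside 3.42% of all genes tested, with a list median of 0.85. MF(ALPHA)2, a gene of the alpha-factor precursor, had 3.58, 3.21 and 3.40 at 96 min, against 2.75, 2.20 and 1.69 at 64 min (1.18 ± 0.23, adjusted p 0.0059, limma). MF(ALPHA)1, the main alpha-factor gene, had 3.43, 2.47 and 4.11 at 96 min, against 3.10, 2.66 and 2.40 at 64 min, and the groups overlapped (0.62 ± 0.32, adjusted p 0.26, limma). STE3, the receptor for a-factor, had 0.74, 1.07 and 1.50 at 96 min, against 0.71, 0.19 and 0.02 at 64 min (0.80 ± 0.51, adjusted p 0.37, limma). SAG1, the alpha-agglutinin, had 0.24, 0.23 and 1.24 at 96 min, against -0.47, -0.30 and -0.20 at 64 min (0.89 ± 0.31, adjusted p 0.091, limma). All 4 were positive in their difference, and 2 passed an unadjusted p of 0.05 in limma. Of all 6045 genes tested, 3061 had a positive difference and 711 were higher at that unadjusted threshold. Print-tip loess, a normalization by printing block, took away the call of MF(ALPHA)2 (adjusted p 0.18).

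**Figure D1:**
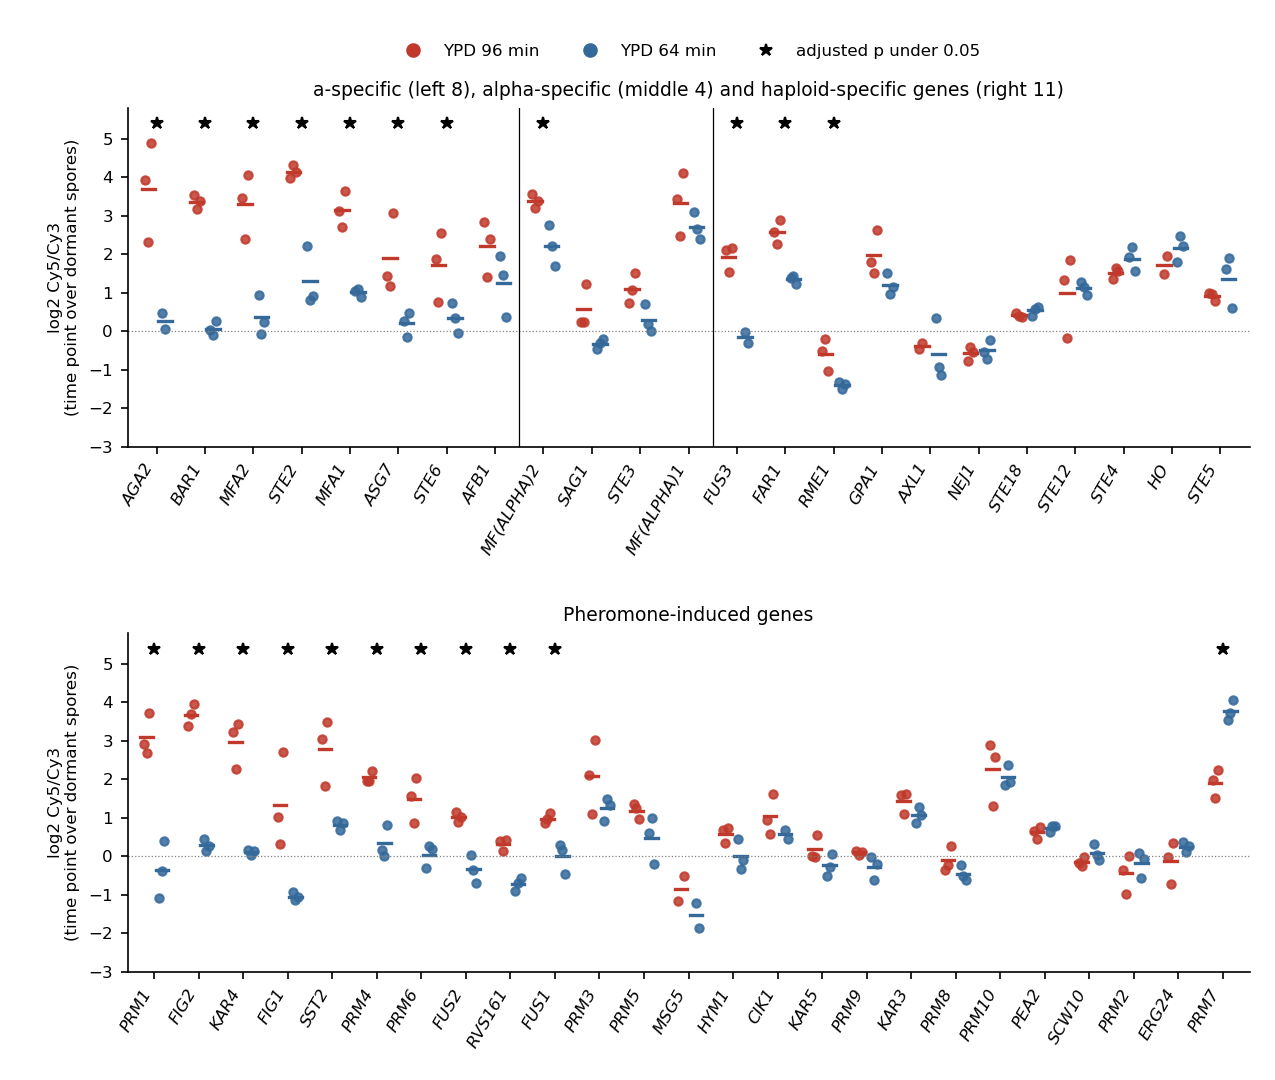
Log2 Cy5/Cy3 (time point over dormant spores) of mating genes on each of the 3 arrays of YPD 96 min (red, left) and YPD 64 min (blue, right); stars mark an adjusted p under 0.05. STE2, MFA2 and BAR1 lie at 2.39 to 4.32 on all late arrays and at -0.11 to 2.21 on the early ones, while MF(ALPHA)1 lies between 2.40 and 4.11 at both times.

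The time course around the step is given as levels, with no test. Samples of 48, 64, 96 and 128 min gave STE2 means of 0.17 ± 0.33, 1.31 ± 0.78, 4.15 ± 0.16 and 3.34 ± 0.16 in that order (SD, n = 3 each). Means of MF(ALPHA)1 over these times were 0.10 ± 0.36, 2.72 ± 0.35, 3.34 ± 0.82 and 4.43 ± 0.50 (SD, n = 3 each). MFA1, also of a cells, was at 1.05 at 32 min and 1.20 at 48 min, so that a-cell genes did not share a single course. SAG1 and STE3 reached their highest YPD means only at 128 min, 3.50 ± 0.09 and 2.31 ± 0.60 (SD, n = 3 each). From 64 over 96 to 128 min the median of the a-specific list was 0.36, 3.23 and 3.22. That of the alpha-specific list was 1.26, 2.22 and 3.66. Between 96 and 128 min the means of AFB1, MFA1, MFA2 and STE6 were higher at the later time and those of STE2, BAR1, AGA2 and ASG7 lower.

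**Figure D2:**
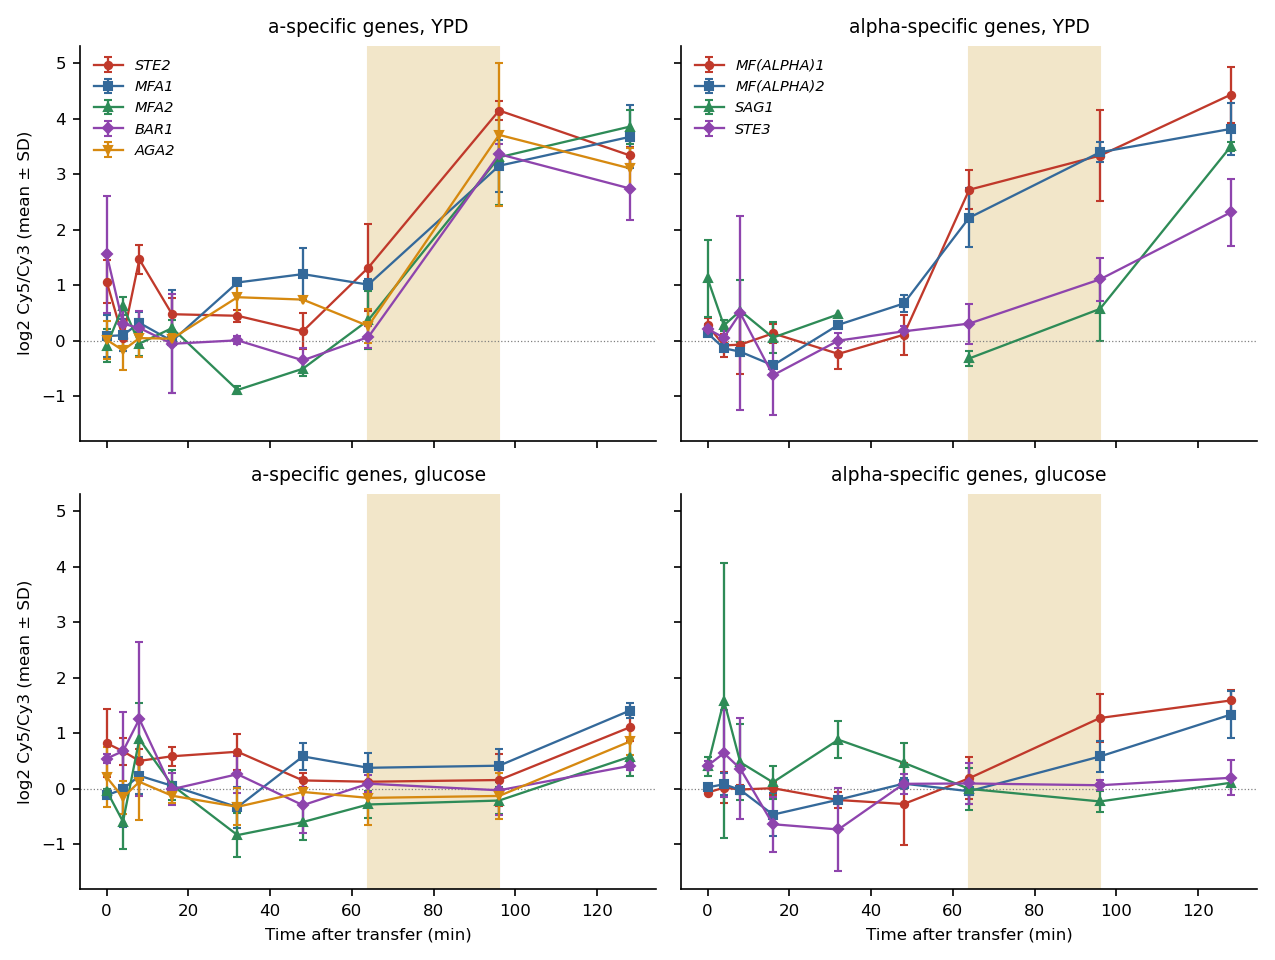
Mean log2 Cy5/Cy3 ± SD (n = 1 to 3 arrays) of a-specific and alpha-specific genes against minutes after transfer, in YPD and in glucose. In YPD the a-specific genes shown were higher at 96 than at 64 min, STE2 reaching 4.15 at 96 min. Some had risen before, with MFA1 at 1.20 at 48 min and STE2 at 0.17 at 48 min and 1.31 at 64 min. MF(ALPHA)1 was at 2.72 at 64 min. In glucose STE2 was at 0.16 at 96 min.

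Genes active in haploids of either mating type were mixed. Of 11 tested, 3 rose, beside 3.42% of all genes tested, and the list median was -0.08. FUS3, the MAP kinase of the pheromone pathway, had 2.10, 1.54 and 2.17 at 96 min, against -0.01 and -0.30 on the 2 usable arrays of 64 min (2.09 ± 0.20, adjusted p 2.7e-07, limma). FAR1, which inhibits the G1 cyclin kinase after pheromone and anchors the mating projection, had 2.59, 2.27 and 2.90 at 96 min, against 1.38, 1.43 and 1.23 at 64 min. Its groups did not overlap (1.24 ± 0.31, adjusted p 0.019, limma), though leaving out replicate 1 or 3 of 96 min raised the adjusted p to 0.051 and 0.067. RME1, a repressor of meiosis in haploids, was below dormant spores at both times, with -0.52, -0.20 and -1.02 at 96 min, against -1.33, -1.50 and -1.36 at 64 min (0.81 ± 0.25, adjusted p 0.049, limma). With the image number of the scans as a block its adjusted p was 0.051, and it was 0.0725 to 0.205 when any array but replicate 3 of 96 min was left out, so that this call lies at the threshold.

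The G protein, the scaffold and the transcription factor of the pheromone pathway gave no call over the same step. GPA1, the G protein alpha subunit, had 1.79, 1.52 and 2.64 at 96 min, against 1.51, 0.98 and 1.14 at 64 min (0.77 ± 0.23, adjusted p 0.0504, limma). STE4 and STE18, the beta and gamma subunits, differed by -0.37 and -0.13 (adjusted p 0.28 and 0.76), and STE5, the scaffold, by -0.46 (adjusted p 0.41). STE12, the transcription factor of the pathway, had 1.32, -0.18 and 1.85 at 96 min, against 1.28, 1.15 and 0.94 at 64 min (-0.13 ± 0.30, adjusted p 0.85, limma). Here replicate 2 of 96 min lay far below the other late arrays. HO, the endonuclease that starts mating type switching, had 1.49 and 1.97 on 2 arrays of 96 min, against 1.80, 2.48 and 2.23 at 64 min (-0.44 ± 0.21, adjusted p 0.21, limma). Over 48, 64, 96 and 128 min its YPD means were 1.33, 2.17, 1.73 and 1.61, highest at 64 min.

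Genes known to be induced by pheromone moved beside those of a cells. Of 25 tested, 10 rose (PRM1, FIG2, KAR4, FIG1, SST2, PRM4, PRM6, FUS2, RVS161 and FUS1) and 1 fell (PRM7), with a list median of 0.70. Over all genes tested, 3.42% were called higher and 2.75% lower. When any 1 of the 6 arrays was left out, 10 or 11 of the list rose. PRM1, a membrane protein of cell fusion, had 2.91, 2.69 and 3.73 at 96 min, against -1.07, -0.36 and 0.40 at 64 min (3.45 ± 0.30, adjusted p 3.7e-08, limma), though its Cy5 was above background on 2 of the 3 early arrays. FIG2, a wall adhesin of mating cells, had 3.38, 3.71 and 3.97 at 96 min, against 0.46, 0.15 and 0.28 at 64 min (3.39 ± 0.22, adjusted p 1.6e-10, limma). KAR4, a partner of Ste12 at genes of nuclear fusion, had 3.24, 2.28 and 3.43 at 96 min, against 0.17, 0.04 and 0.14 at 64 min (2.87 ± 0.21, adjusted p 1.7e-09, limma). The early arrays of FIG2 and KAR4 lay close to the level of dormant spores, and the late ones were 10.5-fold and 7.30-fold higher.

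The remaining rises in that list were smaller. SST2, which turns off the G protein, had 3.04, 1.84 and 3.49 at 96 min, against 0.93, 0.69 and 0.86 at 64 min (1.96 ± 0.32, adjusted p 0.00057, limma). FIG1, a membrane protein of calcium uptake during mating, had 1.02, 0.31 and 2.71 at 96 min, against -0.93, -1.14 and -1.06 at 64 min (2.39 ± 0.35, adjusted p 0.00012, limma). Its late arrays were the most scattered of the named pheromone genes (SD 1.23), and at 64 min its Cy5 was above background on 1 array of 3. FUS1, a cell fusion gene often used as a reporter of the pathway, had 0.86, 0.97 and 1.12 at 96 min, against 0.29, 0.18 and -0.46 at 64 min (0.98 ± 0.18, adjusted p 0.0015, limma); print-tip loess took away its call (adjusted p 0.15). PRM7, named for its regulation by pheromone, went the other way, with 1.98, 1.51 and 2.24 at 96 min, against 3.55, 3.74 and 4.08 at 64 min (-1.88 ± 0.37, adjusted p 0.0039, limma). From 16 over 32, 48, 64 and 96 to 128 min the YPD means of PRM7 were 3.88, 2.61, 2.25, 3.79, 1.91 and 1.62. PRM2, KAR3 and PRM10 differed by -0.26, 0.37 and 0.21 and did not pass (adjusted p 0.53, 0.33 and 0.77).

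AGA1, the anchor subunit of a-agglutinin, could not be tested because all its spots at 96 min carried the flag for poor quality, although none was saturated. Its mean Cy5 signals were 28234, 11354 and 23960 at 96 min, against 1369, 1224 and 1209 at 64 min. When flags were ignored, AGA1 had 3.78, 4.10 and 3.96 at 96 min, against 0.88, 0.27 and 0.54 at 64 min (3.39 ± 0.19, adjusted p 2.2e-11, limma). The bright spots were far above any background, and the difference in this setting was close to that of its partner AGA2.

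The late replicates did not carry the mating genes equally. Replicate 2 of 96 min was the lowest of the 3 in 14 of the 17 a-specific and pheromone-induced genes that rose, and in 8 of the 10 largest rises. The median of the a-specific list was 3.29, 2.36 and 3.51 on the 3 arrays of 96 min, against 0.84, 0.20 and 0.36 on those of 64 min, so that the lowest late array was still above the highest early one. All 17 rises had late arrays wholly above the early ones, as did 800 of all 6045 genes tested. Cy5 was above background on all 3 late arrays for all 17 and on all 3 early arrays for 12 of them. For 6 of the 17 the dormant spore channel was above background on none of the 6 arrays, so that the level relative to spores is only roughly known. Noise in that channel also enters the difference between times. With Cy5 alone, 5 of 8 a-specific and 12 of 25 pheromone-induced genes were called higher.

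Of the 10 largest rises, 3 lay outside the mating lists. SRL1, a mannoprotein of the cell wall, had 3.95, 2.24 and 4.26 at 96 min, against 0.41, 0.83 and 0.37 at 64 min (2.94 ± 0.31, adjusted p 6.5e-07, limma). NFG1, a negative regulator of filamentous growth, had 2.46, 0.69 and 2.48 at 96 min, against -0.40, -0.76 and -0.73 at 64 min (2.51 ± 0.32, adjusted p 1.4e-05, limma). YCLX07W, an open reading frame that the RefSeq gene table does not list, had 3.36, 2.77 and 3.97 at 96 min, against 0.43, 0.60 and 0.82 at 64 min (2.75 ± 0.28, adjusted p 6.4e-07, limma). In all 3 the arrays of the times were separate, and in all 3 replicate 2 was the lowest late array. Of the 207 higher genes 164 were in none of the 20 lists examined, as were 155 of the 166 lower genes.

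Of 15 regulators of Start tested 1 rose, beside 3.42% of all genes tested, and the list median was 0.05. PCL2, a G1 cyclin of the Pho85 kinase, was the member that rose, with 1.59, 0.68 and 2.30 at 96 min, against 0.16, -0.58 and -0.12 at 64 min (1.70 ± 0.31, adjusted p 0.0019, limma). CLN3, the G1 cyclin that acts first at Start, had 0.81, 0.63 and 0.78 at 96 min, against 0.96, 0.69 and 0.27 at 64 min (0.10 ± 0.18, adjusted p 0.79, limma). CLN1, a G1 cyclin driven by SBF, had 0.67, -0.18 and 0.38 at 96 min, against 0.34, 0.44 and 0.37 at 64 min (-0.09 ± 0.26, adjusted p 0.88, limma). For both cyclins the late and early arrays overlapped. CLN2, its partner, was above background in Cy5 on 1 array of 96 min and on none of 64 min, so that no fold change is given for it (adjusted p 0.24, limma). SWI4, the DNA-binding part of SBF, and MBP1, that of MBF, had too few usable spots for a test.

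Beside 3.42% of all genes called higher and 2.75% lower, of 42 genes of DNA replication and repair at the G1/S transition none rose and 1 fell at the adjusted threshold in limma, with 6 higher and 2 lower at an unadjusted p under 0.05, and the list median was 0.07. Over all 6045 genes tested, 711 were higher and 615 lower at that unadjusted threshold. The gene that fell was HCM1, a forkhead factor of S phase, with 0.29, 0.07 and 0.20 at 96 min, against 0.68, 0.95 and 1.56 at 64 min (-0.88 ± 0.19, adjusted p 0.0081, limma). RNR1, a subunit of ribonucleotide reductase, and POL30, the sliding clamp, differed by 0.10 and 0.17 (adjusted p 0.81 and 0.57). None of 8 core histone genes passed in limma (1 lower at an unadjusted p under 0.05, list median -0.04), and their list median was -1.36 at 96 min and -1.62 at 64 min. None of 22 genes of the G2/M group passed either (3 higher at an unadjusted p under 0.05, list median -0.08), with CLB2, the main mitotic cyclin, at 0.52 ± 0.25 (adjusted p 0.22). Of 19 M/G1 genes 1 rose, TEC1, a factor that works with Ste12 in filamentous growth, with 2.49, 1.95 and 2.10 at 96 min, against 0.91, 0.77 and 1.34 at 64 min (1.17 ± 0.22, adjusted p 0.0023, limma). Of 27 genes of polarity and bud formation 1 rose (list median 0.06), RHO1, the GTPase that activates glucan synthase and the cell wall integrity pathway, by 0.54 ± 0.15 (adjusted p 0.039, limma). RHO1 turned negative when Cy5 was used alone (-0.40), and lost its call without replicate 1 or 2 of either time (adjusted p 0.071 to 0.13).

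**Figure D3:**
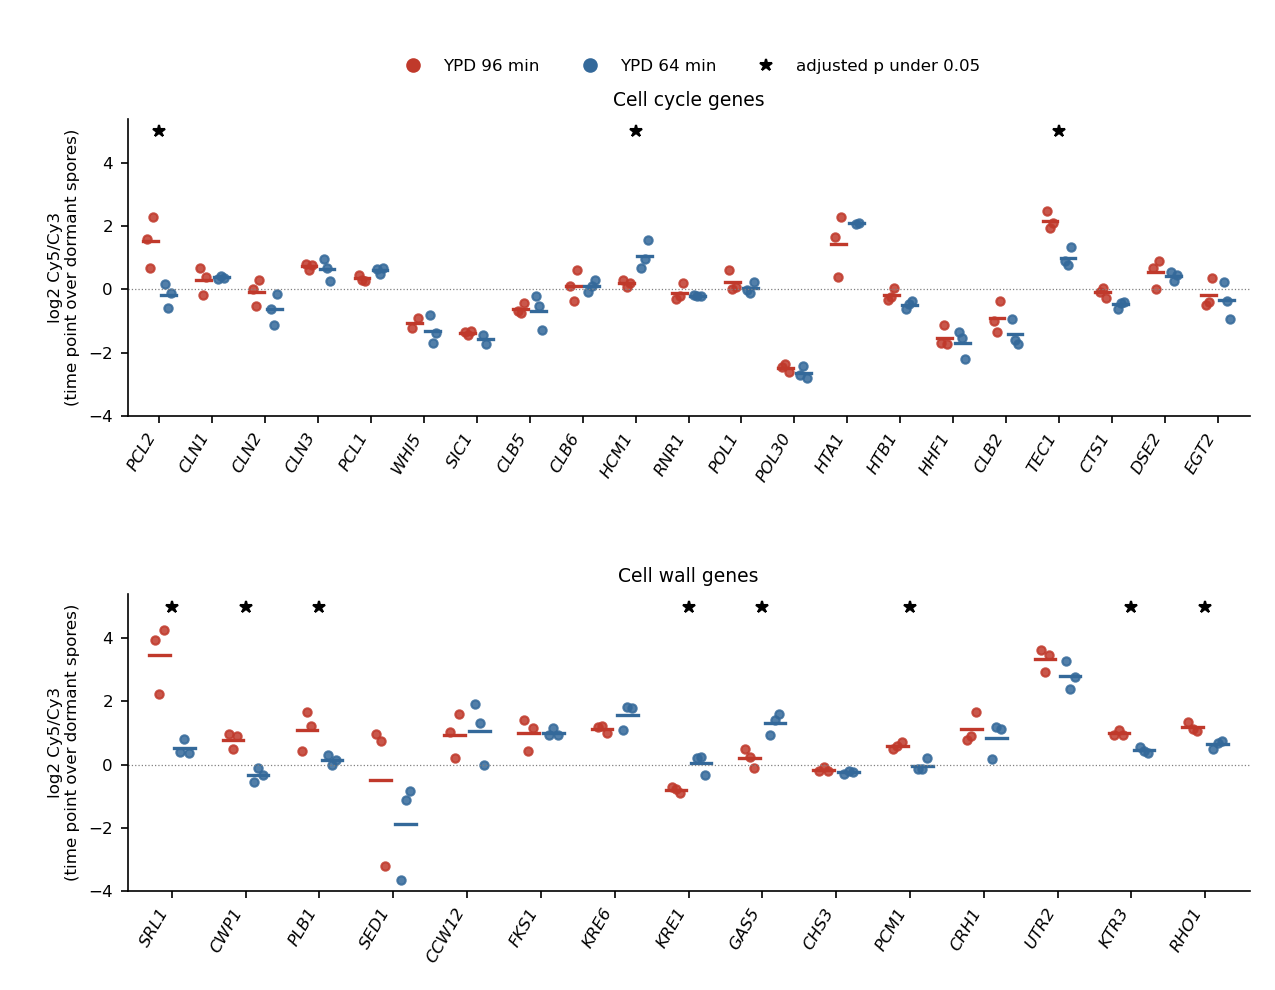
Log2 Cy5/Cy3 (time point over dormant spores) of cell cycle and cell wall genes on each array of YPD 96 min (red, left) and YPD 64 min (blue, right); stars mark an adjusted p under 0.05. PCL2 and SRL1 stand apart at 96 min, CLN3 and FKS1 overlap between the times, and GAS5, KRE1 and HCM1 lie lower at 96 min.

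Among 25 tested mannoproteins, the outer layer of the cell wall, 4 rose (SRL1, CWP1, PLB1 and TIR1) and none fell in limma, with a list median of 0.32. Over all genes tested 3.42% were called higher and 2.75% lower. At an unadjusted p under 0.05 in limma, 8 mannoproteins were higher and 1 lower, beside 711 higher and 615 lower of all 6045 genes. CWP1 had 0.96, 0.51 and 0.91 at 96 min, against -0.56, -0.10 and -0.33 at 64 min (1.12 ± 0.33, adjusted p 0.045, limma), a call that leaving out any of the 6 arrays took away (adjusted p 0.058 to 0.13). PLB1, a phospholipase carried on the cell surface, had 0.44, 1.66 and 1.22 at 96 min, against 0.31, -0.03 and 0.15 at 64 min (0.96 ± 0.22, adjusted p 0.011, limma), and was -0.15 with Cy5 alone and not called without replicate 2 of 96 min (adjusted p 0.078) or of 64 min (adjusted p 0.055). SED1, an abundant wall protein, had 0.98, 0.76 and -3.19 at 96 min, against -3.66, -1.11 and -0.85 at 64 min, with wide spread at both times (1.39 ± 1.0, adjusted p 0.44, limma); with the image number of the scans as a block it was called (adjusted p 0.044). CCW12, a mannoprotein of the growing wall, differed by -0.14 ± 0.46 (adjusted p 0.90). Of 26 mannosylation and glycosylation genes 1 rose, the mannosyltransferase gene KTR3, by 0.54 ± 0.16 (adjusted p 0.045, limma), a call also lost without any of them (adjusted p 0.059 to 0.13).

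Enzymes that make or remodel glucan and chitin gave few calls. Of 29 tested, 1 rose and 2 fell, beside 3.42% higher and 2.75% lower over all genes tested, with a list median of 0.01. GAS5, a glucanosyltransferase that lengthens glucan chains, had 0.50, 0.25 and -0.11 at 96 min, against 0.93, 1.43 and 1.60 at 64 min (-1.10 ± 0.18, adjusted p 0.00078, limma). KRE1, a glycoprotein of glucan assembly, had -0.72, -0.78 and -0.89 at 96 min, against 0.22, 0.25 and -0.34 at 64 min (-0.84 ± 0.17, adjusted p 0.0054, limma). Neither overlapped between the times, and KRE1 was below dormant spores on every late array. PCM1, which makes a precursor of chitin, differed by 0.63 ± 0.14 (adjusted p 0.011, limma), and was not called without replicate 2 of 64 min (adjusted p 0.056). FKS1, the main glucan synthase, had 1.40, 0.43 and 1.16 at 96 min, against 0.95, 1.16 and 0.94 at 64 min (-0.02 ± 0.20, adjusted p 0.97, limma), and CHS3, a chitin synthase, differed by 0.09 ± 0.13 (adjusted p 0.75, limma). UTR2, a chitin to glucan crosslinking enzyme, was high at both times, with 3.62, 2.94 and 3.47 at 96 min, against 3.28, 2.38 and 2.78 at 64 min (0.53 ± 0.22, adjusted p 0.16, limma).

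Of 25 genes of the spore wall and sporulation, beside 3.42% of all genes called higher and 2.75% lower, none rose and 1 fell in limma (0 higher and 3 lower at an unadjusted p under 0.05, beside 711 and 615 of all 6045 genes tested), with a median of 0.01. It was SPO74, a spindle pole body component of meiosis, with 0.14, -0.17 and 0.08 at 96 min, against 0.71, 0.83 and 0.91 at 64 min (-0.80 ± 0.21, adjusted p 0.025, limma), a call lost without replicate 2 of 96 min (adjusted p 0.093) or replicate 2 or 3 of 64 min (adjusted p 0.068 and 0.056). None of 22 meiotic genes passed in limma (1 higher and 1 lower at an unadjusted p under 0.05, median 0.00). None of 8 markers of dormant or sporulated cells passed in limma (0 at an unadjusted p under 0.05, median difference 0.03), while all 6 markers of a cells rose, 1 of 4 markers of alpha cells and 2 of 6 markers of haploids. Per array the median of the spore markers was -1.22 to -0.09 at 96 min and -0.64 to -0.30 at 64 min, and only 2 of the 8 at 96 min and 3 at 64 min were above background in Cy5 on all arrays.

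**Figure D4:**
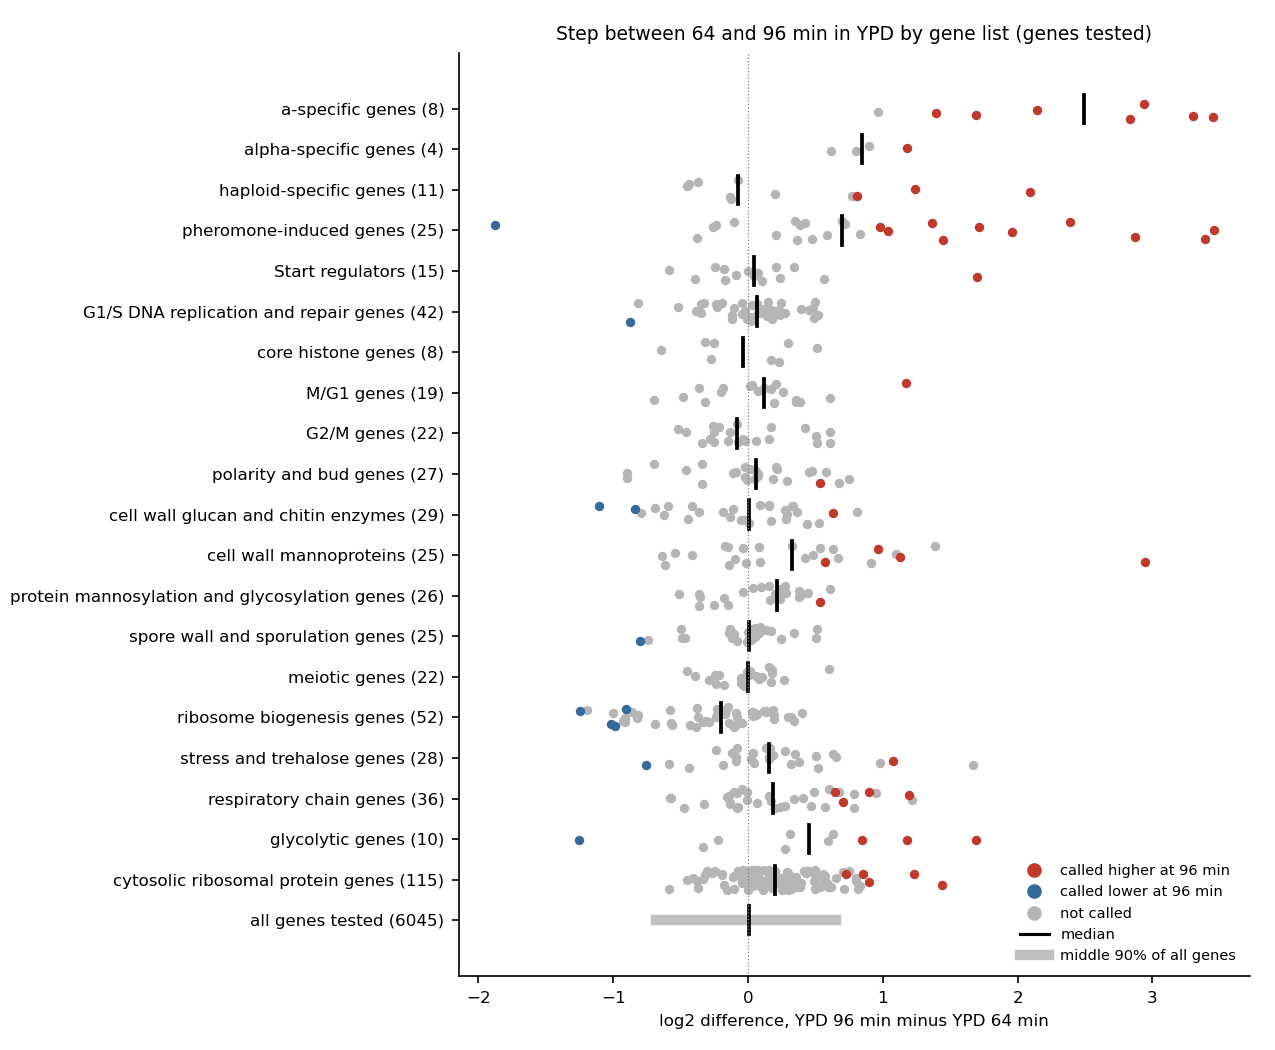
Difference in log2 Cy5/Cy3, YPD 96 min minus YPD 64 min, of each tested gene in the 20 lists, 1 row per list; points are genes, coloured where called higher or lower, black lines are medians and the grey band holds the middle 90% of all genes. The a-specific list has its median at 2.49 and the pheromone-induced list at 0.70, while the Start, G1/S and histone lists have theirs between -0.04 and 0.07.

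Genes of growth and metabolism gave a few calls each, beside 3.42% higher and 2.75% lower over all genes tested. At an unadjusted p under 0.05 in limma, 711 of all 6045 genes tested were higher and 615 lower. Of 52 tested genes of ribosome biogenesis, 4 fell and none rose in limma (12 lower and 0 higher at an unadjusted p under 0.05), and the list median was -0.20. RPA43, a subunit of RNA polymerase I, had 1.98, 0.96 and 1.97 at 96 min, against 2.53, 3.25 and 2.88 at 64 min (-1.25 ± 0.25, adjusted p 0.005, limma). UTP18, a component of the small subunit processome, had 1.34, 0.82 and 1.69 at 96 min, against 2.29, 2.33 and 2.28 at 64 min (-1.02 ± 0.23, adjusted p 0.01, limma), and was not called without replicate 2 of 96 min (adjusted p 0.062). NOG2 and NOP4, both needed for the large subunit, differed by -0.98 and -0.91 (adjusted p 0.036 and 0.049). The list was above dormant spores at both times, with a median level of 1.39 at 96 min and 1.65 at 64 min. Of 115 cytosolic ribosomal protein genes 5 rose and none fell in limma (19 higher and 2 lower at an unadjusted p under 0.05), with a median of 0.20. RPS28A had 3.35, 3.57 and 3.63 at 96 min, against 2.32, 2.74 and 1.79 at 64 min (1.23 ± 0.23, adjusted p 0.0026, limma), the clearest of these, though near-identical gene copies such as RPS28B can share signal on spotted probes.

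Glycolytic and respiratory transcripts were below dormant spores at both times, with list medians of -3.74 and -1.31 at 96 min, against -3.93 and -1.52 at 64 min. PDC5, a pyruvate decarboxylase gene, had -3.31, -3.34 and -2.81 at 96 min, against -4.85, -4.44 and -5.25 at 64 min (1.69 ± 0.30, adjusted p 0.0014, limma). PDC1, its close copy, had -3.84, -3.64 and -3.63 at 96 min, against -4.93 and -4.83 on 2 arrays of 64 min (1.18 ± 0.19, adjusted p 0.0056, limma). Both moved toward the spore level but stayed well under it, and probes of close copies can share signal. CDC19, the pyruvate kinase gene, moved away, with -5.34, -4.73 and -5.36 at 96 min, against -3.72, -3.64 and -4.31 at 64 min (-1.25 ± 0.23, adjusted p 0.0058, limma). Of the 10 glycolytic genes tested 3 rose and 1 fell (median 0.45), and 7 more on the array had too few usable spots. For this list and those below, 3.42% of all genes tested were called higher and 2.75% lower. At an unadjusted p under 0.05 in limma, 711 of all 6045 genes were higher and 615 lower. HXK2, a hexokinase gene, was the other that rose, by 0.85 ± 0.19 (adjusted p 0.013, limma). Of 36 respiratory chain genes 4 rose and none fell in limma (14 higher and 1 lower at an unadjusted p under 0.05), all 4 for subunits of ATP synthase (ATP2, ATP1, ATP4 and ATP5). ATP1 had -1.23, -1.27 and -1.46 at 96 min, against -2.55, -1.89 and -2.21 at 64 min (0.89 ± 0.20, adjusted p 0.01, limma), and was not called without replicate 1 of 64 min (adjusted p 0.055). Of 28 stress and trehalose genes 1 rose, GLC3, the glycogen branching enzyme (1.07 ± 0.32, adjusted p 0.049, limma), and 1 fell, NTH1, the neutral trehalase (-0.76 ± 0.18, adjusted p 0.014, limma). GLC3 was not called without replicate 1 or 2 of either time (adjusted p 0.076 to 0.23), nor NTH1 without replicate 1 of 96 min (adjusted p 0.0505).

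Of the 10 largest falls only PRM7 was in a mating list. CST26, an acyltransferase of phospholipid remodelling, had -0.90 and 0.07 on 2 arrays of 96 min, against 1.92, 2.07 and 1.38 at 64 min (-2.20 ± 0.26, adjusted p 7.1e-06, limma). Its Cy5 was above background on only 1 array of 96 min and the dormant spore channel on none of the 6 arrays. When flags were ignored it had 0.99, 0.01 and 0.32 at 96 min, against 1.99, 2.13 and 1.47 at 64 min, a difference of -1.43 (adjusted p 0.0024, limma). ADH7 and ADH6, related NADPH-dependent alcohol dehydrogenases, fell together. ADH7 had 0.09, -0.13 and -0.02 at 96 min, against 1.52, 1.97 and 2.11 at 64 min (-1.89 ± 0.18, adjusted p 2.6e-07, limma). ADH6 had 0.98, 1.30 and 0.87 at 96 min, against 2.66, 2.76 and 2.27 at 64 min (-1.51 ± 0.21, adjusted p 0.00012, limma). ADH7 was back at the level of dormant spores on all late arrays, and ADH6 was not. CPA1, a subunit of carbamoyl phosphate synthase in arginine synthesis, had 0.26, 0.58 and 0.22 at 96 min, against 1.46, 1.82 and 2.44 at 64 min (-1.55 ± 0.22, adjusted p 0.00012, limma).

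RPC19 and TSR2, also among the 10 largest falls, work in ribosome production. RPC19, a subunit shared by RNA polymerases I and III, had 0.45, -1.21 and 1.31 at 96 min, against 1.87, 2.07 and 1.34 at 64 min (-1.58 ± 0.39, adjusted p 0.016, limma). Leaving out replicate 2 of 96 min reduced its difference to -0.88 and took away the call (adjusted p 0.10), as did leaving out replicate 2 of 64 min (adjusted p 0.074). TSR2, a factor of pre-ribosomal RNA processing, had 1.64, -0.03 and 1.76 at 96 min, against 2.51, 2.96 and 2.40 at 64 min (-1.50 ± 0.31, adjusted p 0.0056, limma). In both genes replicate 2 was again the lowest late array. YFL051C had -0.71, -1.42 and -0.98 at 96 min, against 1.22, 0.73 and 0.78 at 64 min (-1.95 ± 0.20, adjusted p 6.8e-07, limma), passing from above to below the spore level. YGR151C, which the RefSeq gene table does not list, differed by -1.59 (adjusted p 0.0081). STD1, a regulator of glucose sensing, was listed at -1.55 (adjusted p 0.013), but at 96 min its spots were not above background in Cy5 or in the dormant spore channel on any of the 3 arrays, so that no fold change is given for it.

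In glucose alone, without the other nutrients of YPD, few genes passed over the same step. Only 2 of 5938 genes (0.0337%) passed between glucose 96 min and glucose 64 min at an adjusted p under 0.05, and 304 did at an unadjusted p under 0.05. The third glucose replicate had another array layout and quantification day at both times, and 3 genes passed with the glucose replicate number as a block. Each glucose replicate was quantified on the same day at both times, whereas the YPD arrays of the 64 and 96 min times fell on different days. Medium and change of day thus cannot be told apart when the steps are compared. The YPD step was more positive than the glucose step for 31 genes (0.522%) and more negative for 9 (0.152%) in a direct test of the difference between the steps in limma. These included 6 of the 8 a-specific genes and 7 of the 25 pheromone-induced genes. STE2 changed by 2.83 in YPD and by 0.03 in glucose, where it had -0.12, -0.11 and 0.70 at 96 min, against -0.18, 0.30 and 0.25 at 64 min (difference of the steps 2.80, adjusted p 3.2e-06, limma). FIG2 changed by 3.39 in YPD and by 0.20 in glucose (difference 3.19, adjusted p 2.3e-10, limma). PRM1 changed by 3.45 in YPD and by 0.03 in glucose (difference 3.42, adjusted p 6.3e-07, limma). None of these genes was called in glucose. MF(ALPHA)2 and MF(ALPHA)1, in contrast, had glucose steps of 0.63 and 1.09 beside YPD steps of 1.18 and 0.62, and their steps were not called as different.

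Among the falls, 3 named genes had a more negative step in YPD. ADH7 changed by -1.89 in YPD and by -0.13 in glucose (difference -1.76, adjusted p 0.0025, limma), and YFL051C by -1.95 and -0.38 (difference -1.57, adjusted p 0.0026, limma). GAS5 changed by -1.10 in YPD and by 0.18 in glucose (difference -1.28, adjusted p 0.047, limma), a call lost without the third glucose replicate, whose array had another layout. Of the higher genes in YPD 92 of 203 had a positive glucose step, and of the lower genes 117 of 161 had a negative one, with glucose medians of -0.03 and -0.14. Over all 5938 genes with a glucose step the median was -0.02, close to that of the higher genes.

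**Figure D5:**
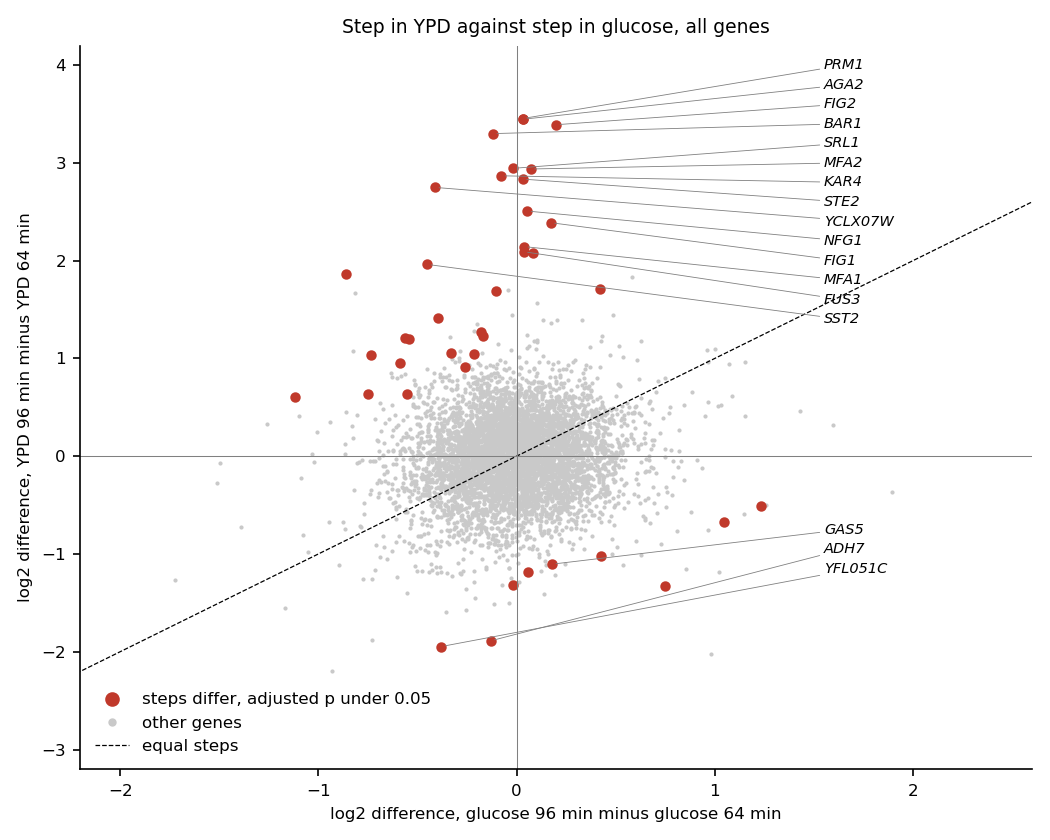
Difference of 96 min minus 64 min in YPD (vertical) against the same difference in glucose (horizontal), log2 Cy5/Cy3, 1 point per gene; coloured points are the 40 genes whose steps differ at an adjusted p under 0.05 and the dashed line marks equal steps. PRM1, AGA2, FIG2 and BAR1 stand at 3.30 to 3.45 in YPD and between -0.12 and 0.20 in glucose.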

How the data were processed

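Spores of Y55 were transferred to YPD or glucose and RNA was hybridised to spotted arrays with 13056 spots and 6218 gene identifiers (2 spots per gene), Cy5 for the time point and Cy3 for dormant spores, with no dye swap. The deposited scanner files hold linear spot intensity and local background per channel, not normalized. Their headers give version 6.0.1, while the methods name GenePix software. A table deposited by the authors holds 1 log2 ratio per gene and time point in 18 columns, the authors' mean over replicates, used here only as an alternative.

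Intensities were background-corrected with normexp (offset 50), spots flagged as manual or poor were left out, ratios were loess-normalized within each array and spots of a gene averaged, in limma 3.58.1 (R 4.3.3, statmod 1.5.0). All 27 YPD arrays entered 1 fit, with the contrast of the 3 arrays of 96 min and the 3 of 64 min, for 6045 genes with values on at least 2 arrays per group; p-values were adjusted by the Benjamini-Hochberg method and 0.05 was the threshold. A spot was above background where its mean exceeded the background mean by 2 SD. The steps in YPD and glucose were compared as an interaction over all 53 arrays. The number of arrays limits precision, and p-values measure only the spread between these arrays, which may be technical in part. Gene identifiers came from the arrays, and 5663 of them matched the RefSeq table (R64), which gave the gene names.

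The genes named are the 10 largest rises and 10 largest falls among called genes with no overlap and Cy5 above background on the higher arrays, up to 3 rises and 2 falls per list, and a set of textbook key genes. The genes and lists were chosen with earlier results of these data known. Other list members the text names were added after their values were seen. The fit was tested on simulated data with known changes.

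Correlations of deviations were -0.17, -0.04 and -0.26 for arrays sharing a file number. They were 0.33, 0.11 and 0.18 for those sharing an image number in the file headers, and -0.18, -0.03 and 0.07 for the other pairs. Deviations were taken from the mean of their own group, so that these values constrain one another and do not settle which arrays pair. The main fit used no pairing. Alternatives covered background correction, normalization, flags, channel, samples in the fit, replicate and day blocks, and leaving out each array.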

Additional observations from a re-analysis of the deposited data

Results flagged for a closer look

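These genes were singled out because their step between 64 and 96 min differed between YPD and glucose in a direct test of the difference (adjusted p under 0.05, limma interaction over all 53 arrays). Only the YPD step spans a change of quantification day, so that medium and day cannot be told apart in this test. The YPD step was larger by 3.42 for PRM1, 3.42 for BAR1, 3.41 for AGA2, 3.16 for YCLX07W, 2.96 for SRL1, 2.95 for KAR4 and 3.19 for FIG2 on the log2 scale. It was larger by 2.87 for MFA2, 2.80 for STE2, 2.45 for NFG1, 2.41 for SST2, 2.11 for MFA1, 2.06 for FUS3 and 2.22 for FIG1. The YPD step was more negative for GAS5 (-1.28), YFL051C (-1.57) and ADH7 (-1.76). Under other settings FIG1 was not called with no background subtraction (0.77, adjusted p 0.11), and GAS5 was not called without the third glucose replicate (adjusted p 0.063) or when flags were ignored (adjusted p 0.062). The groups hold 3 arrays each, so that no test for a single array lying apart was made.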

How the results depend on the processing

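The 207 higher and 166 lower genes depended on the processing, in number and in which genes were called, while few named genes changed direction. They became 358 higher genes with no background subtraction, 128 and 77 with plain subtraction, 100 lower genes with a normexp offset of 0, 449 and 278 with Cy5 alone, 48 and 18 with scaling between arrays, and 59 and 62 where a 2-fold difference was also required. Membership changed too, also where the counts moved less. Print-tip loess called 273 and 233 genes, with 136 and 113 among the 207 and 166. The median of spot pixels called 212 and 178, with 130 and 104 among them, and Cy5 alone kept 83 and 72. The block by file number kept 187 and 149. Fitting only the 6 arrays left 17 and 9 calls, with 4 a-specific and 5 pheromone-induced genes, and fitting all 53 arrays gave 126 and 93. Quantification day as a random block gave 474 and 389, with an estimated correlation of -0.12. Day as a fixed block over all 53 arrays, an alternative chosen after seeing the data, gave 63 and 81, of which 31 and 25 were among the 207 and 166, with 3 a-specific genes. No day held both groups, so that no value within a day could be given. Leaving out 1 array at a time gave 107 to 229 higher and 68 to 168 lower genes; it was 124 and 101 without replicate 1 of 96 min, 112 and 68 without its replicate 2, and 107 and 68 without replicate 2 of 64 min. Plain subtraction took away the calls of SST2, PRM7 and FAR1. With the replicate block by image number, also added after seeing the data, 248 and 208 genes were called, SED1 gained its call (adjusted p 0.044) and RME1 lost it (0.051); with the block by file number the counts were 198 and 162 and GLC3 lost its call (0.056). Among 6034 genes shared with the authors' table, 78 were lower by 2-fold or more with no test, against 12 by that table, with 10 in common; 68 were higher, against 54, with 34 in common. The 40 genes whose YPD and glucose steps differed became 66 with no background subtraction and 49, the 40 among them, with a replicate block of the glucose arrays, added after seeing the data. Direction turned for PLB1 (-0.15), RPL22A (-0.035) and RHO1 (-0.40) with Cy5 alone, and for RHO1 (-0.14) and PCM1 (-0.27) with day as a fixed block; the cause was not tested. Of the other 2057 comparisons of a named gene with an alternative, 1806 kept direction and call, 227 lost the call and 24 gained it.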
